A study of Homo sapiens with 12 samples.

Results

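HT1376 is a human bladder cancer cell line, and RNA from 2 clonal lines derived from it was sequenced in 12 libraries. HT1376 CT (labelled WT) is a CRISPR control made with a guide RNA against luciferase, and HT1376 FOXP3 KO was derived through single-cell cloning after editing of FOXP3. Both lines are described as clonal. Whether all libraries of a line come from 1 clone is not stated in the sources used here. Each line was untreated (labelled UTR) or exposed to IFNγ (100 ng/mL, 48 hours), which gives 4 groups of 3 libraries. In every group the 3 libraries carry the numbers 11, 12 and 13, and the sources used here do not say what a number marks. The 4 libraries numbered 12, 1 from each group, are described here against the 8 libraries numbered 11 or 13. They were selected on measured values, the levels of ENO2 and of hypoxia and glycolysis genes in these counts, which had set number 12 apart, so the difference between number 12 and the other numbers is a description with no test. Tests are given only for measures that this choice did not use: the difference of the number 12 contrast between the lines, its difference between untreated and IFNγ-treated cells, and number 11 against number 13.

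The number 12 libraries held 4490684 to 12705778 counts on genes and the other 8 held 11099706 to 39270042, and in each group number 12 was the shallowest library. FOXP3 had at most 3 counts in any library, so the labels of the lines could not be checked by it. The 7 epithelial markers summed to 3821 to 4436 CPM in the number 12 libraries and to 4207 to 4939 CPM in the others. Immune markers summed to at most 2.7 CPM (number 12) and 3.01 CPM (others) with MS4A1 and NKG7 at 0 in all libraries, endothelial markers to at most 1.83 and 1.67 CPM, and fibroblast markers to 24.5 to 493 CPM and 31.5 to 703 CPM. Mitochondrial transcripts took 3.51% to 4.49% of the counts in number 12 and 3.10% to 5.11% in the others. Depth moved with the number, so the counts of the deeper libraries were also thinned at random to the total of the number 12 library of their group.

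As background, cells sense oxygen through the hypoxia-inducible factors (HIF). In well-oxygenated cells the prolyl hydroxylases EGLN1, EGLN2 and EGLN3 mark the subunits HIF1A and EPAS1, and VHL directs the marked subunits to degradation. When oxygen is short the subunits persist, pair with ARNT or ARNT2 and bind the core motif ACGTG of hypoxia response elements in genes for glucose uptake, glycolysis, angiogenesis and collagen processing. Solid tumors, bladder cancer among them, often show this program. ENO2 encodes enolase 2, the neuronal isoenzyme of a glycolytic step that ENO1 serves in most cells, and it is a known HIF target.

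To show where this motif lies in genes described here, each gene's 300-base window (250 bases before to 50 after the start, RefSeq, GRCh38.p14) was searched for ACGTG on both strands, which is also read as CACGT. It occurred in 23 of 33 hypoxia targets (69.7%), in 15 of 24 glycolysis genes (62.5%), in 9 of 16 unfolded protein response genes (56.3%), in 10 of 28 cell cycle genes (35.7%), in 38.5% of the HIF machinery, 29.4% of cholesterol synthesis and 20% of IFNγ target genes and in 6790 of all 27305 genes (24.9%). Genes with several starts have several windows, and per window the shares were 60.4% for hypoxia targets, 37.3% for glycolysis, 40.9% for the unfolded protein response, 29.4% for the cell cycle and 21.4% for all genes. The other form of the HIF core, GCGTG, searched on both strands as well, was in 22 of 33 hypoxia targets (66.7%), in 70.8% of glycolysis, 64.3% of cell cycle, 62.5% of unfolded protein response, 94.1% of cholesterol synthesis, 46.2% of HIF machinery and 37.1% of IFNγ target genes and in 40.6% of all genes. Per window these shares of GCGTG, in the same order, were 58.3%, 41.2%, 61.8%, 68.2%, 90.9%, 33.3%, 38.6% and 36.5%. Of the 31 hypoxia and glycolysis genes with a start in the table that were higher in number 12 by the fold rule given below, a set picked by the number 12 values, 77.4% held ACGTG and 64.5% held GCGTG. The hypoxia list was drawn up from known HIF targets, and a match is not evidence of binding in these cells. The stretches below, 5′ to 3′ on the gene's strand, come from promoters of genes described here that held the motif, picked to cover several functions, and capitals mark the motif in either orientation.
ENO2 (chr12:6914450-6914479, plus strand, glycolysis): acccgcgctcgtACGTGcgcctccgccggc
HK2 (chr2:74834067-74834096, plus strand, glycolysis): aatgggcgtgcgCACGTcactgatccggag
PFKFB3 (chr10:6202813-6202842, plus strand, control of glycolysis): accctcctcccCACGTGgaagggggctggg
LDHA (chr11:18394478-18394507, plus strand, lactate production): cgtgggttcccgCACGTccgccggcccccc
PDK1 (chr2:172556070-172556099, plus strand, control of pyruvate use): cgcCACGTccctCACGTaccactcggcaga
P4HA1 (chr10:73096935-73096964, minus strand, collagen processing): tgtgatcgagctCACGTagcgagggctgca
ANKRD37 (chr4:185396686-185396715, plus strand, hypoxia-induced gene): cagtgtttgtgtACGTGcggccgtggcggg
PPFIA4 (chr1:203026361-203026390, plus strand, hypoxia-induced gene): ggcgctctcgtCACGTGcccggacccgagg
The PDK1 stretch held the motif at 2 places, and in PFKFB3 and PPFIA4 the match was the palindrome CACGTG, which reads the same on both strands.

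ENO2 (ENSG00000111674, chr12:6913745-6923698, plus strand, GRCh38) was higher in number 12 than in the other libraries of its group in all 4 groups. Its normalised level, as library-scaled counts with TMM factors (CPM, a unit set by the total of each library), was 23.8 and 39 CPM in HT1376 CT number 12 without and with IFNγ. In HT1376 FOXP3 KO number 12 it was 30.4 and 25.9 CPM. The 8 libraries numbered 11 or 13 ranged from 4.64 to 13.2 CPM (median 7.94), so that the 4 number 12 libraries lay above all of them. The fitted log2 fold change of number 12 against 11 and 13, with the group as covariate, was 1.90 ± 0.15 (SE, 4 libraries against 8). The SEs here and below count the libraries of a number as separate, although libraries of the same number varied together. They therefore do not measure the spread between numbers. On the log2 scale the differences within the groups were 1.22 and 1.68 in HT1376 CT and 2.35 and 2.26 in HT1376 FOXP3 KO, each pair without and with IFNγ. The isoenzymes differed less. ENO1 was at 2018 and 2672 CPM in HT1376 CT number 12 and 2099 and 2471 CPM in HT1376 FOXP3 KO number 12. The other libraries held 1256 to 2852 CPM (median 1608), and the log2 fold change of ENO1 was 0.43 ± 0.10. This difference was larger in HT1376 FOXP3 KO than in HT1376 CT, as given below. ENO3, the muscle isoenzyme, stayed at or below 4.6 CPM in every library, with a log2 fold change of 0.12 ± 0.32.

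**Figure D1:**
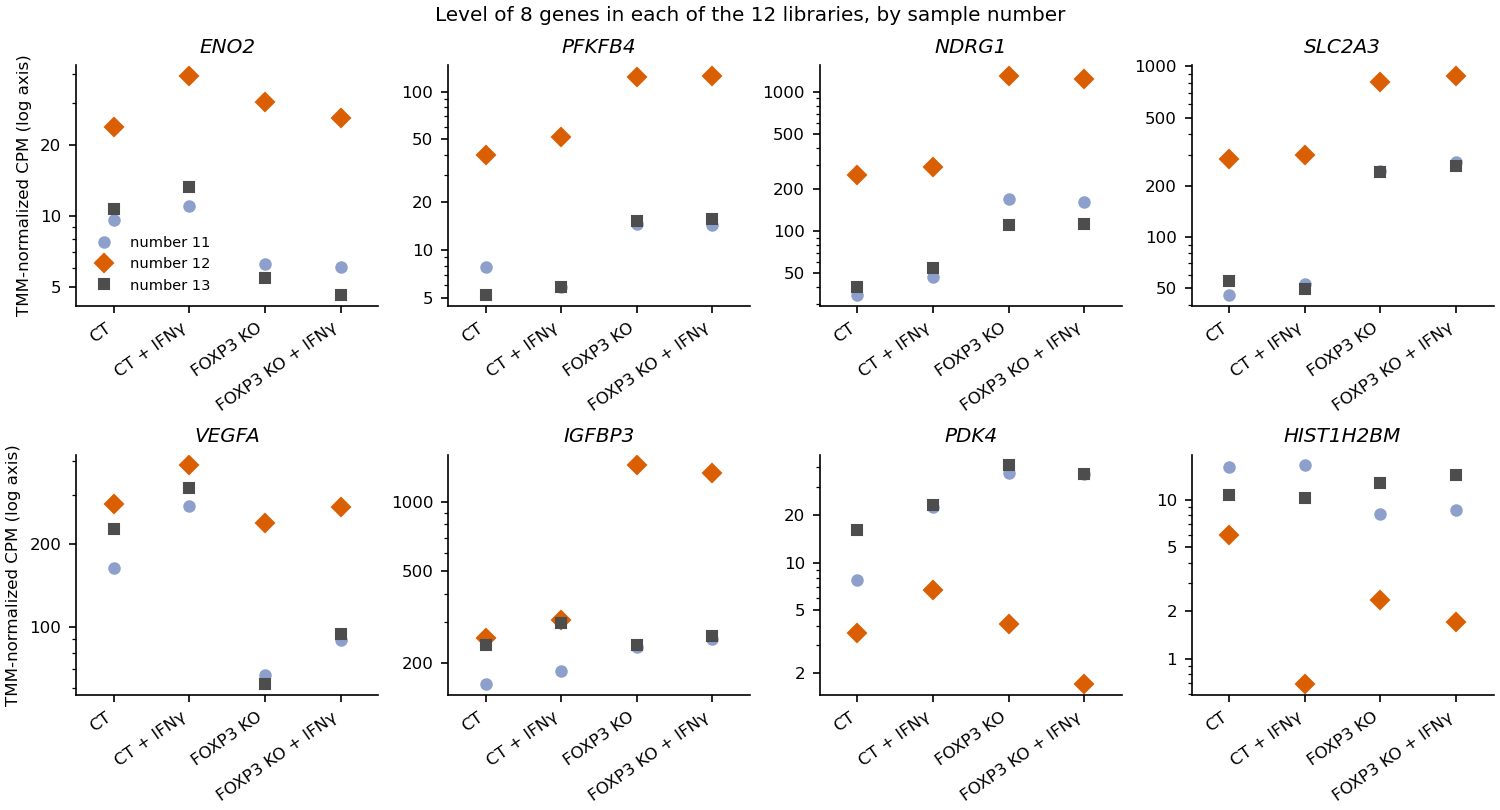
TMM-normalised CPM (log axis) of 8 genes in the 12 libraries, by group on the x axis, with diamonds for number 12, circles for number 11 and squares for number 13. The ENO2 diamonds lie between 23.8 and 39 CPM, above all 8 other points, and for PDK4 and HIST1H2BM the diamonds lie below the other libraries of the same group in all 4 groups.

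Glucose enters cells through the transporters of the SLC2A family, and both SLC2A1 and SLC2A3 were higher in number 12. SLC2A1 was at 598 and 529.6 CPM in HT1376 CT number 12, where number 11 and 13 had 180.1 to 246 CPM, and at 1547 and 1538 CPM in HT1376 FOXP3 KO number 12, where they had 373 to 432 CPM. For SLC2A3 the number 12 values were 284 and 300.1 CPM in HT1376 CT and 814 and 875 CPM in HT1376 FOXP3 KO, with 45.8 to 55.4 CPM and 239 to 276 CPM in the other libraries of each line. For both transporters the 4 number 12 libraries lay above all 8 others, although HT1376 FOXP3 KO had the higher level at every number. The log2 fold changes were 1.67 ± 0.08 for SLC2A1 and 2.14 ± 0.11 for SLC2A3.

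Among the enzymes that trap and commit glucose, HK2, the inducible hexokinase, was at 496 and 768 CPM (HT1376 CT) and 811 and 900.1 CPM (HT1376 FOXP3 KO) in number 12 and at 131 to 216 CPM (median 154) in the other 8, a log2 fold change of 2.20 ± 0.09. HK1, the constitutive hexokinase, differed by 0.27 ± 0.07. PFKFB3 and PFKFB4 make fructose 2,6-bisphosphate, the activator of phosphofructokinase, and had the largest fitted differences of the glycolysis list. PFKFB4 reached 39.7 and 51.9 CPM in HT1376 CT number 12 and 125 and 125 CPM in HT1376 FOXP3 KO number 12, against 5.23 to 15.8 CPM (median 11.1) in the others, so that all 4 lay above the 8. Its log2 fold change was 2.98 ± 0.10, and that of PFKFB3 was 2.66 ± 0.11. PFKFB2 was different, with a log2 fold change of 0.08 ± 0.09, and the phosphofructokinase subunits PFKP, PFKL and PFKM differed by 0.81 ± 0.12, 0.55 ± 0.08 and -0.13 ± 0.11.

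Later steps of the pathway varied as well. PGK1, a kinase that yields ATP, was at 422 and 649 CPM and 552 and 654 CPM in number 12 and 179 to 229.9 CPM (median 218) in the others (log2 fold change 1.40 ± 0.09). LDHA, which makes lactate, was the most abundant member at 4156 and 4273 CPM and 4306 and 5097 CPM, against 2113 to 2987 CPM (median 2351), with a log2 fold change of 0.88 ± 0.08. PGK1 and LDHA were above all 8 other libraries in each number 12 library. LDHB had the lowest value of the list, -0.42. Over the alternative settings LDHB ranged from -0.98 to 0.21, the latter with HT1376 CT fitted alone. ALDOC, GPI, TPI1, PGAM1, GAPDH and PKM, which carry other steps, had log2 fold changes of 1.79 ± 0.12, 1.18 ± 0.09, 0.73 ± 0.09, 0.85 ± 0.09, 0.59 ± 0.08 and 0.40 ± 0.07. SLC16A3, the lactate exporter of glycolytic cells, differed by 1.02 ± 0.09, and SLC16A1, the other monocarboxylate transporter measured, by -0.19 ± 0.08. ALDOA (0.90 ± 0.14) is given as uncertain because the table holds this symbol under 2 identifiers, which can split its reads, and the value is that of ENSG00000149925.

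Pyruvate dehydrogenase kinases inhibit pyruvate dehydrogenase and so restrain the use of pyruvate in mitochondria, and their genes went in opposite directions. PDK1 was at 127 and 152 CPM in HT1376 CT number 12 and 231 and 213 CPM in HT1376 FOXP3 KO number 12, and at 24.8 to 56.1 CPM (median 39) in the other libraries, above all 8 in each case (log2 fold change 2.19 ± 0.07). PDK3 differed by 1.66 ± 0.23. PDK4 (chr7:95583499-95596516, minus strand), which is known to accompany fatty acid use and fasting, had the lowest fitted log2 fold change of all genes with a mean of at least 1 CPM, -2.75 ± 0.29. It was at 3.58 and 6.69 CPM in HT1376 CT number 12 and 4.12 and 1.71 CPM in HT1376 FOXP3 KO number 12. Number 11 and 13 held 7.82 to 23.3 CPM in HT1376 CT and 36.2 to 41.1 CPM in HT1376 FOXP3 KO, so that the 4 number 12 libraries lay below all 8 others.

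A gene was counted as higher by the fold rule when its fitted log2 fold change was at least 1 and its number 12 library lay above both other libraries in all 4 groups, and as lower by the mirror rule. Of 27806 genes that reached 10 counts summed over the libraries, 380 (1.37%) were higher and 231 (0.831%) lower, and with the deeper libraries thinned to the number 12 totals 414 were higher and 137 lower. Without any 1 of the number 12 libraries 568 to 683 were higher and 459 to 562 lower, since 3 groups then had to share the order. With the stricter expression filter of edgeR (filterByExpr) 344 were higher and 136 lower. Among the 15677 genes with a mean of at least 1 CPM, 228 (1.45%) were higher and 100 (0.638%) lower. These counts come from the contrast that chose the libraries and are read as a description. Closest inside the threshold on the higher side was ALG1L9P at 1.004, and closest outside it RFTN1 at 0.998. Of the 380 higher genes, 190 were protein-coding (50%), 124 long noncoding (32.6%) and 50 pseudogenes (13.2%), and among all genes tested these shares were 55.0%, 24.8% and 12.4%. Of the 231 lower genes, 98 were protein-coding, and the median level was 0.731 CPM, against 1.49 CPM for the higher genes and 1.79 CPM for all genes tested.

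Most known hypoxia targets were higher in number 12. Of 46 listed genes 43 had enough counts to be fitted, of which 36 were above both other libraries in all 4 groups (4.62% of all genes) and 31 were higher by the fold rule (1.37% of all genes). CA9, LOX and NRN1 reached the minimum of 10 counts only through the number 12 libraries, with 5, 6 and 5 counts in the other 8 together, so the filter itself fixed their direction. The remaining 40 had positive log2 fold changes with a median of 1.54, against -0.06 over all genes tested, and 35 of them were above both others in all 4 groups and 30 higher by the fold rule. CA12, BNIP3 and RNASE4 fell below the count filter with 7, 5 and 2 counts in all. Of 27 glycolysis genes 24 were positive, 21 lay above both others in all groups and 12 were higher by the fold rule, with a median of 0.88. Both counts by the fold rule, 31 and 12, came out the same in the thinned libraries. In number 11 against number 13, a contrast that the choice did not use, the median was -0.07 for the hypoxia targets and -0.06 for the glycolysis genes, against -0.03 over all genes tested.

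**Figure D2:**
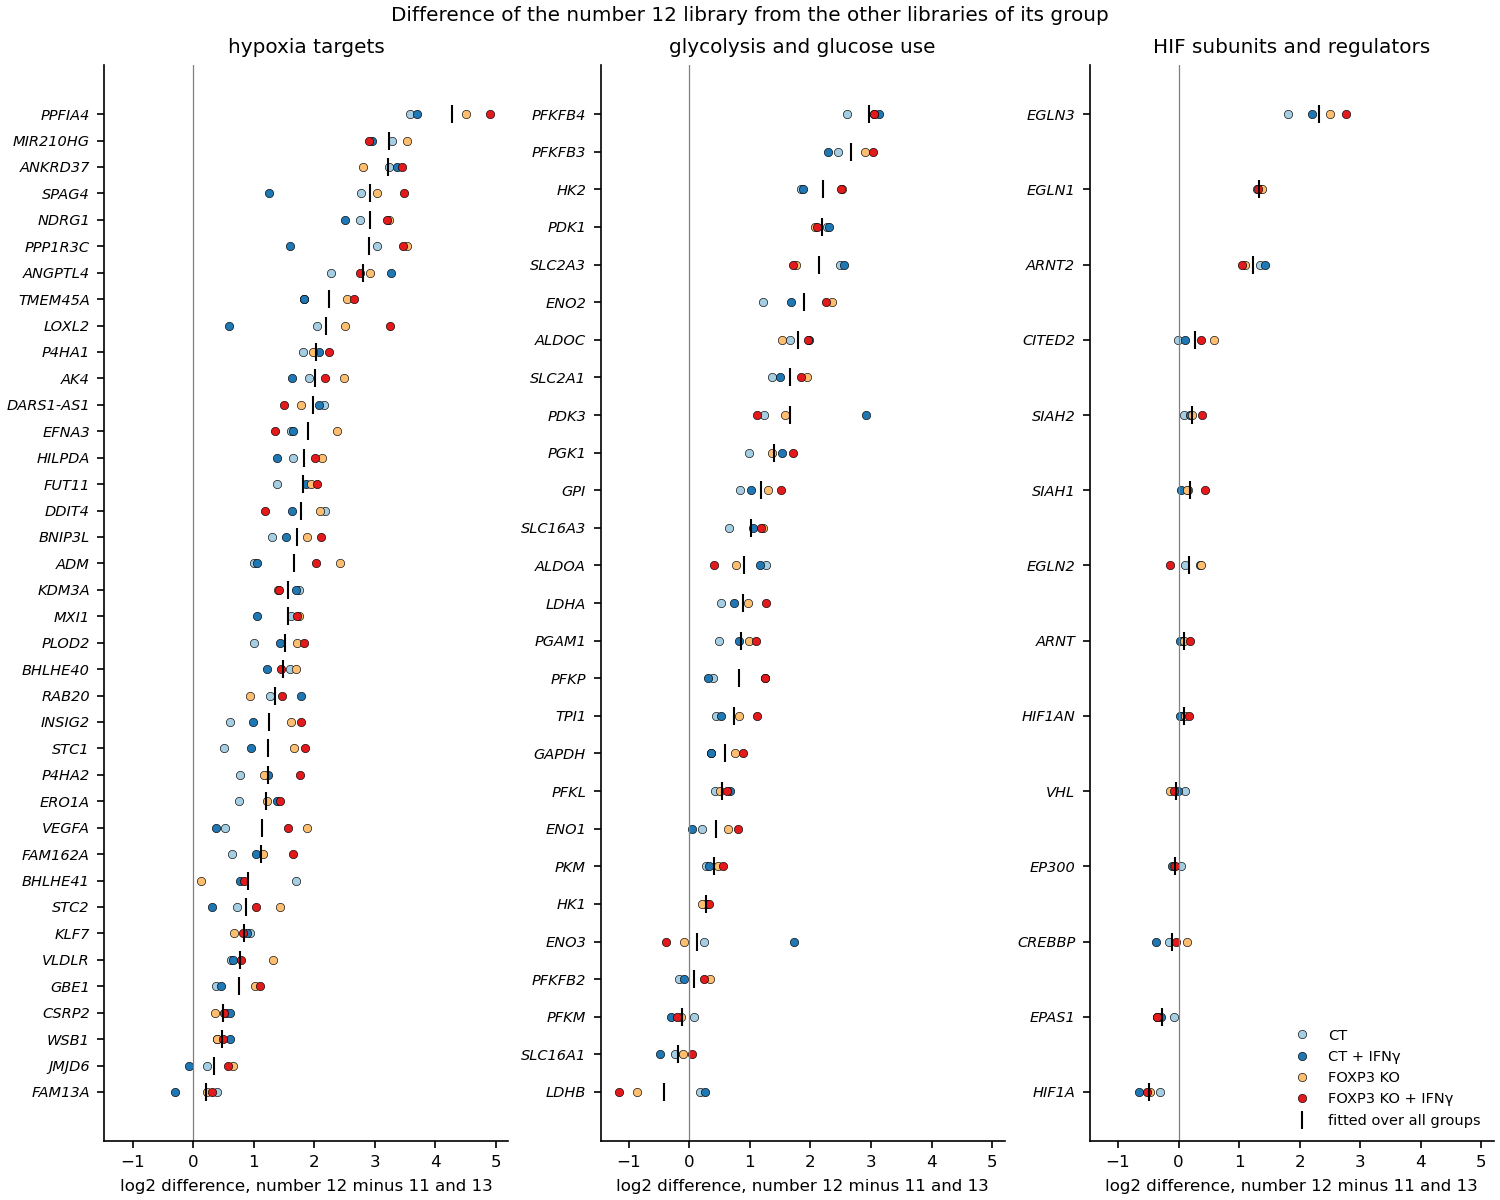
Log2 difference of the number 12 library from the mean of the 2 other libraries of its group (log2 CPM, prior count 2), with 1 colored point per group and a bar for the fitted log2 fold change, for the members reported here with a mean of at least 1 CPM. In the hypoxia panel the fitted bars run from 0.21 (FAM13A) to 4.27 (PPFIA4), and among the HIF subunits and regulators 3 genes, EGLN3, EGLN1 and ARNT2, lie above 1.

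PPFIA4, a liprin scaffold gene known to be induced by hypoxia, had the largest fitted difference of the list among genes with a mean of at least 1 CPM. It was at 23.3 and 29.3 CPM in HT1376 CT number 12 and 54.0 and 71.0 CPM in HT1376 FOXP3 KO number 12, while the other 8 libraries held 1.63 to 2.81 CPM (median 1.98), a log2 fold change of 4.27 ± 0.18. NDRG1 is a stress-response gene that hypoxia is known to induce. Its level was 253 and 288 CPM in HT1376 CT number 12 against 35.2 to 54.9 CPM in number 11 and 13, and 1299 and 1245 CPM in HT1376 FOXP3 KO number 12 against 112 to 172 CPM. The log2 fold change of NDRG1 was 2.92 ± 0.12. MIR210HG, the host transcript of the hypoxia-induced miR-210, and ANKRD37 differed by 3.24 ± 0.17 and 3.22 ± 0.21, each with all number 12 libraries above all others. CA9, the carbonic anhydrase used as a marker of tumor hypoxia, had only 4 to 21 counts in the number 12 libraries and at most 0.129 CPM in the others, so its fold is poorly determined.

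Hypoxia targets with other functions were higher as well. P4HA1, P4HA2 and PLOD2, which hydroxylate collagen, had log2 fold changes of 2.03 ± 0.07, 1.23 ± 0.14 and 1.51 ± 0.09. P4HA1 was at 200 and 308 CPM and 327 and 353 CPM in number 12 and 55.9 to 88.4 CPM (median 74.5) in the others. BNIP3L, which marks mitochondria for removal, and DDIT4, an inhibitor of mTOR, differed by 1.71 ± 0.10 and 1.78 ± 0.12. KDM3A, a histone demethylase, differed by 1.57 ± 0.07 and was at 239.8 and 299 CPM and 229 and 253 CPM against 70.5 to 96.6 CPM (median 89.8). ANGPTL4 and HILPDA, which act in lipid handling, had values of 2.81 ± 0.14 and 1.83 ± 0.15. PGF, a blood vessel growth factor that is not on the list and was named for its value at the upper end, differed by 3.70 ± 0.52 with at most 42 counts in a number 12 library. Members that did not reach the fold rule included STC2 (0.87 ± 0.15), KLF7 (0.84 ± 0.10), GBE1 (0.75 ± 0.11), WSB1 (0.47 ± 0.07) and CSRP2 (0.49 ± 0.10), all above both others in all groups. JMJD6 and FAM13A had the smallest values, 0.34 ± 0.16 and 0.21 ± 0.13, and LOX and NRN1, with 21 and 12 counts in all, were at or near 0 in most libraries.

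Of 15 genes of the HIF pathway itself 14 could be fitted (HIF3A could not), with a median log2 fold change of 0.13. By the fold rule 3 of them were higher (1.37% of all genes). EGLN3 and EGLN1, themselves known HIF targets, were higher, whereas the genes of the HIF subunits HIF1A and EPAS1 were not. EGLN3 was at 233 and 258 CPM in HT1376 CT number 12 and 348 and 354 CPM in HT1376 FOXP3 KO number 12, and at 42.4 to 71.7 CPM (median 62.4) in the others (log2 fold change 2.32 ± 0.12). EGLN1 differed by 1.34 ± 0.15 and EGLN2 by 0.17 ± 0.16. HIF1A was at 79.5 and 70.9 CPM and 78.8 and 77.8 CPM in number 12 against 95.8 to 118 CPM (median 107) in the others, so that all 4 lay below all 8, with a log2 fold change of -0.48 ± 0.08. EPAS1 differed by -0.27 ± 0.08, ARNT by 0.10 ± 0.07 and ARNT2 by 1.23 ± 0.12, and VHL by -0.03 ± 0.08. HIF1A-AS2, a transcript antisense to HIF1A, was at 10.9 and 26.3 CPM and 33.2 and 37.0 CPM in number 12 and 1.78 to 6.21 CPM (median 3.02) in the others. The strand setting of the counting is not given in the sources used here, so reads of HIF1A and its antisense partner may not be fully separated.

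**Figure D3:**
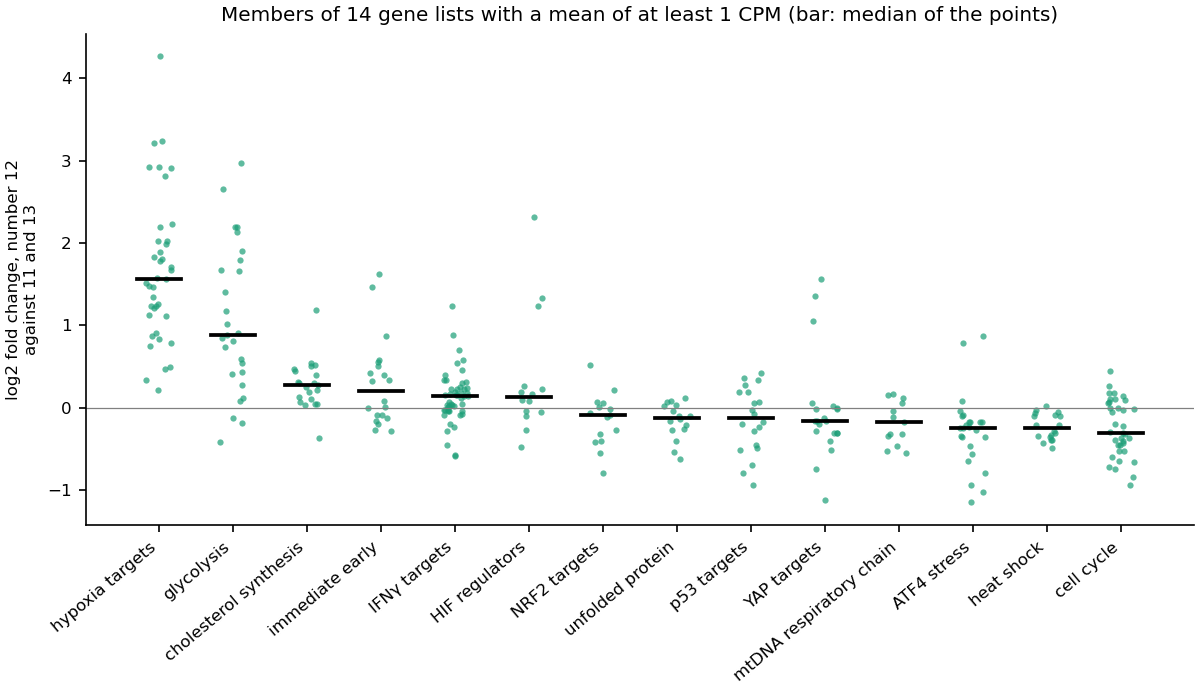
Fitted log2 fold change of number 12 against 11 and 13 for the members of 14 gene lists with a mean of at least 1 CPM, 1 point per gene, with a bar at the median of the points. The medians are 1.56 for hypoxia targets and 0.88 for glycolysis, and those of the other 12 lists lie between -0.30 and 0.28.

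For other programs the differences were smaller. Cholesterol synthesis genes had a median of 0.28 with 21 of 23 positive, against 43.9% of all genes tested, and 1 higher by the fold rule (1.37% of all genes), INSIG1 (1.19 ± 0.10), a brake on sterol synthesis, whose relative INSIG2 on the hypoxia list differed by 1.26 ± 0.13. IFNγ targets had a median of 0.13 over 50 genes and none past the fold rule in either direction. Immediate early genes had a median of 0.08 with 2 of 23 higher, FOS (1.46 ± 0.15) and IER3 (1.62 ± 0.20). YAP targets had a median of -0.17 with 2 of 22 higher, IGFBP3 (1.56 ± 0.26) and F3 (1.06 ± 0.17), the tissue factor gene. For ATF4 stress genes (27) the median was -0.25, for the unfolded protein response (16) -0.12, for heat shock (18) -0.25, for p53 targets (20) -0.13, for NRF2 targets (18) -0.19 and for the 13 respiratory chain genes of mitochondrial DNA -0.17, with no member past the fold rule. By the mirror rule 0.831% of all genes were lower. Of 5 metallothionein-list genes (median -0.13) 1 was lower, the zinc exporter SLC30A1 (-1.01 ± 0.12). Among the marker lists no gene passed the fold rule, with medians of -0.24 (epithelial), -0.26 (immune), -1.86 (endothelial) and -0.38 (fibroblast). No immune or endothelial marker had a mean over 1 CPM, and the fibroblast sum came mainly from COL1A2 with a mean of 183 CPM.

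The lower end of the ranking included replication-dependent histone genes, whose transcripts accumulate in S phase and lack a poly(A) tail. Among the 54 histone genes with a mean of at least 1 CPM, a group picked after its values were seen, 31 were lower by the fold rule (0.831% of all genes), 44 lay below both others in all 4 groups (8.44% of all genes), and the median was -1.05. HIST1H2BM was at 5.96 and 0.693 CPM in HT1376 CT number 12 and 2.33 and 1.71 CPM in HT1376 FOXP3 KO number 12, against 8.13 to 16.4 CPM (median 11.6) in the others (log2 fold change -2.10 ± 0.30). HIST1H2AL, at a higher level, was at 23.6 and 8.08 CPM and 18.9 and 23.5 CPM against 34.7 to 71.2 CPM (median 61.5) (-1.68 ± 0.12). Histone genes together took 0.119% to 0.368% of the counts in number 12 and 0.341% to 0.739% in the others, and within each group number 12 had the lowest share. The cell cycle list had a median of -0.30, with 13 of 36 genes below both others in all groups and none past the fold rule. Its lowest members were the mitotic genes PLK1 (-0.94 ± 0.13), UBE2C (-0.84 ± 0.11), CCNB1 (-0.75 ± 0.12) and CENPE (-0.72 ± 0.11). Depth was lowest in the same libraries, and with the deeper libraries thinned the log2 fold change was -2.09 for HIST1H2BM and -1.63 for HIST1H2AL.

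Beyond the lists, the ends of the ranking held transcripts of less certain function. AL109615.2, a noncoding transcript, had the largest fitted log2 fold change of genes with a mean of at least 1 CPM, 4.93 ± 0.67, with 0.636 and 2.54 CPM in HT1376 CT number 12, 3.40 and 7.49 CPM in HT1376 FOXP3 KO number 12 and 0 to 0.234 CPM (median 0.0729) in the others, which held 15 of its counts in all. The pseudogene KLHL2P1 differed by 3.02 ± 0.48. At the lower end MEST, an imprinted gene of the hydrolase fold, was at 0.159 and 0.693 CPM and 0.806 and 0.749 CPM in number 12 against 0.776 to 4.22 CPM (median 2.08) in the others (-2.07 ± 0.39), and ARRDC3-AS1, antisense to ARRDC3, differed by -1.78 ± 0.26.

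By likeness of pattern, the genes closest to ENO2 were BNIP3L (Pearson's r = 0.992), PPFIA4 (0.991), TNFAIP8 (0.990), KCTD11 (0.990) and INSIG2 (0.990). These r are over the 12 libraries, taken on deviations of log2 CPM from the group mean, among 15676 other genes with a mean of at least 1 CPM. The points share libraries and depth, and the values are a description. TNFAIP8 and KCTD11, an apoptosis regulator and a ubiquitin ligase adaptor, are on none of the lists and differed by 0.61 ± 0.07 and 2.42 ± 0.13.

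How much of the spread between libraries of a group went with number 12 was described by splitting each gene's within-group sum of squares over its 8 contrasts, for 15677 genes with a mean of at least 1 CPM. An equal split would give 12.5% each. Number 12 against 11 and 13 took a median of 24.9% per gene and 34.4% of the summed squares, and it was the largest of the 8 in 42.6% of genes. Its difference by line took 14.4% of the summed squares, and number 11 against 13 took 11.9%. A first principal component of the deviations from group means held 36.2% of their variance, and on it the 4 number 12 libraries scored 22.7 to 44.2 and the other 8 from -27.9 to -7.55.

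**Figure D4:**
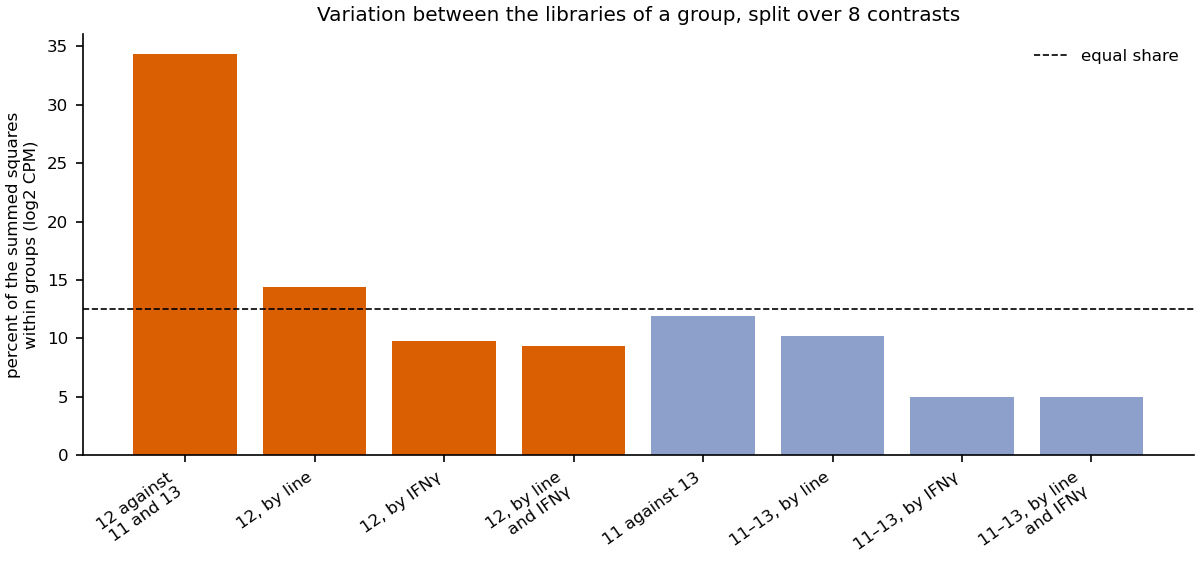
Percent of the within-group summed squares of log2 CPM on each of 8 orthogonal contrasts over 15677 genes, with the equal share of 12.5% as a dashed line. The bar of number 12 against 11 and 13 stands at 34.4%, and the bars of 11 against 13 by IFNγ stand near 5%.

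To ask whether the difference appeared in both lines, number 12 was compared with 11 and 13 in each line alone. The values of each line come from a fit with its own scaling, and the difference between the lines comes from the fit of all 12 libraries, so it can depart slightly from their subtraction. All 380 higher genes were positive and all 231 lower genes negative in both lines, which the fold rule itself largely fixes. The hypoxia targets, with CA9, LOX and NRN1 among them, had a median log2 fold change of 1.42 in HT1376 CT and 1.78 in HT1376 FOXP3 KO. The glycolysis genes had medians of 0.69 and 1.16. With each line fitted alone, 27 of 41 hypoxia targets in HT1376 CT and 35 of 42 in HT1376 FOXP3 KO were higher by the rule over that line's 2 groups, and 11 and 16 of 27 glycolysis genes. Over all genes this rule gave 4.68% higher and 5.28% lower in HT1376 CT, and 6.05% higher and 5.51% lower in HT1376 FOXP3 KO. CA9, LOX and NRN1 could reach 10 counts in either line only through number 12. The filter thus fixed the direction of any of them in these counts and medians. For ENO2 the log2 fold change was 1.45 ± 0.18 in HT1376 CT and 2.38 ± 0.18 in HT1376 FOXP3 KO. The difference of 0.89 ± 0.24 did not pass in the fit that left the libraries unpaired by number (adjusted p = 0.113, edgeR's quasi-likelihood test). Across the 15677 genes the correlation between the lines was 0.407 for the number 12 difference and 0.0736 for number 11 minus 13. It is given as a description, since genes are not independent and each pair of libraries shares a number.

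The size of the number 12 difference depended on the line for some genes. By edgeR's quasi-likelihood test of the interaction of number 12 with line, 228 of 27806 genes (0.82%) passed at an adjusted p under 0.05, 150 more positive (0.539%) and 78 more negative (0.281%) in HT1376 FOXP3 KO, and 2387 (8.58%) had an unadjusted p under 0.05. With the sample number as a replicate block 1019 genes passed, 576 more positive and 443 more negative. DESeq2 called 425 (294 and 131) and edgeR's bias-adjusted deviance 126 (94 and 32). Without any 1 library numbered 11 or 13, 219 to 305 were more positive and 51 to 77 more negative, so the ratio of the directions varied with the setting. Each line has only 2 number 12 libraries, and without 1 of them 75 (HT1376 FOXP3 KO with IFNγ), 81 (HT1376 FOXP3 KO untreated), 114 (HT1376 CT with IFNγ) or 130 (HT1376 CT untreated) genes passed. In the same order 67, 71, 92 and 109 of these were more positive and 8, 10, 22 and 21 more negative. Without number 11 of HT1376 CT 357 (with IFNγ) or 372 (untreated) genes passed. Nothing in the labels says that the libraries of a group came from separate cultures, so these p-values measure only the spread between the libraries. The untreated and IFNγ-treated libraries of 1 line and number also varied together (r = 0.344 and 0.564 for number 12). The test counts them as separate, so even its small p-values cannot show that the lines would differ likewise at other numbers. Hypoxia targets contributed 5 of 43 genes, all more positive in HT1376 FOXP3 KO, and glycolysis genes 3 more positive and 1 more negative of 27. Among the members past this test both groups of HT1376 FOXP3 KO lay outside the range of both groups of HT1376 CT.

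VEGFA, the main angiogenic factor of hypoxic cells, was at 278 and 385 CPM in HT1376 CT number 12, with 164 to 318 CPM in number 11 and 13. In HT1376 FOXP3 KO it was at 238 and 272 CPM in number 12, with 61.8 to 93.8 CPM in the others. In the libraries numbered 11 or 13 all values of HT1376 CT lay above all values of HT1376 FOXP3 KO, and in number 12 the lines nearly met. The within-group log2 differences were 0.53 and 0.38 in HT1376 CT and 1.89 and 1.57 in HT1376 FOXP3 KO, and the difference between the lines was 1.29 ± 0.16 (adjusted p = 1.15e-04, edgeR). ADM, the vasodilator adrenomedullin, showed the same direction with log2 fold changes of 1.03 ± 0.11 and 2.28 ± 0.09 in HT1376 CT and HT1376 FOXP3 KO (difference 1.21 ± 0.16, adjusted p = 2.66e-04, edgeR). INSIG2 and STC1, the latter a secreted glycoprotein, differed by 0.91 ± 0.18 (adjusted p = 0.0112, edgeR) and 1.0 ± 0.23 (adjusted p = 0.0417, edgeR). The STC1 call was lost with DESeq2, at an adjusted p of 0.228, with filterByExpr (0.124), with the bias-adjusted deviance (0.117) and without any 1 of the 4 number 12 libraries (0.0931 to 0.399). The adjusted p of INSIG2 was 0.159 without number 12 of IFNγ-treated HT1376 FOXP3 KO, 0.0572 without that of untreated HT1376 FOXP3 KO and 0.158 without that of untreated HT1376 CT. The calls of VEGFA and ADM held with each library left out.

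Of the glycolysis genes, HK2 (difference 0.66 ± 0.12, adjusted p = 0.00644), PFKP (0.89 ± 0.14, adjusted p = 0.00191) and ENO1 (0.60 ± 0.14, adjusted p = 0.0368) had larger number 12 differences in HT1376 FOXP3 KO by the edgeR test. ENO1 was close to the other libraries in HT1376 CT, at 0.13 ± 0.08, and at 0.77 ± 0.07 in HT1376 FOXP3 KO, and its call was lost with the bias-adjusted deviance (adjusted p = 0.0610) and with both interactions in 1 model (0.0607). It was also lost without number 12 of IFNγ-treated HT1376 FOXP3 KO (0.208), untreated HT1376 FOXP3 KO (0.0562) or IFNγ-treated HT1376 CT (0.125), and the HK2 call without number 12 of untreated HT1376 FOXP3 KO (0.0530). SLC2A3 had the opposite sign, -0.79 ± 0.13 (adjusted p = 0.00238, edgeR), with 2.53 ± 0.10 in HT1376 CT and 1.78 ± 0.08 in HT1376 FOXP3 KO. Its call was lost without number 12 of HT1376 FOXP3 KO with IFNγ (0.149) or untreated (0.0895) or of HT1376 CT with IFNγ (0.0954). PDK4 was lower in both lines and more so in HT1376 FOXP3 KO (-1.76 ± 0.25 and -3.63 ± 0.19, adjusted p = 0.0183, edgeR), a call lost with the bias-adjusted deviance (adjusted p = 0.203), with filterByExpr (0.0705) and without number 12 of HT1376 FOXP3 KO with IFNγ (0.394) or of HT1376 CT with (0.209) or without IFNγ (0.226). For PFKFB4, PDK1, ALDOC, MIR210HG, ANKRD37 and ANGPTL4 the difference between the lines was 0.19 ± 0.21, -0.20 ± 0.15, -0.08 ± 0.25, -0.01 ± 0.30, -0.24 ± 0.43 and 0.06 ± 0.27. None passed the test in the fit that left the libraries unpaired by number, and these genes were not followed with the replicate block.

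**Figure D5:**
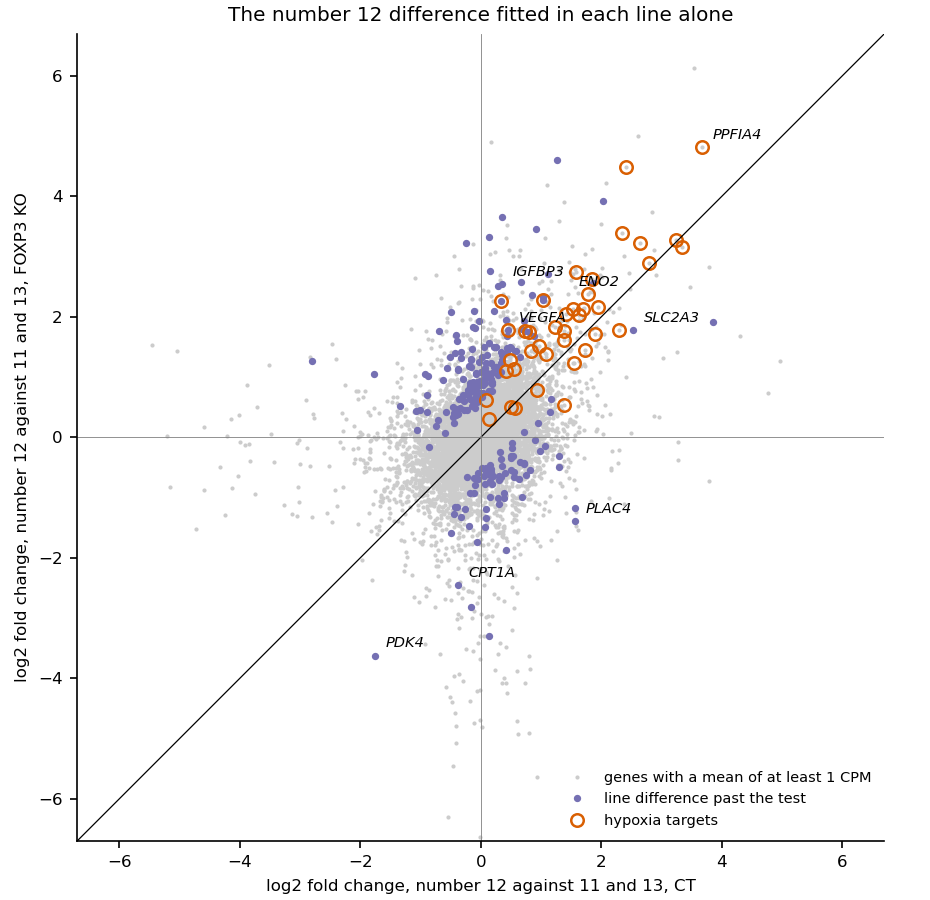
Log2 fold change of number 12 against 11 and 13 fitted in HT1376 CT (x axis) and HT1376 FOXP3 KO (y axis) for genes with a mean of at least 1 CPM, with genes past the test of the line difference as filled points and hypoxia targets as rings, and the line of equality. The rings lie at positive values on both axes, with VEGFA at 0.45 and 1.78, and the filled point of SLC2A3, a glycolysis gene, lies at 2.53 and 1.78.

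Outside the hypoxia and glycolysis lists, several genes had a much larger number 12 difference in HT1376 FOXP3 KO. IGFBP3, which binds insulin-like growth factors, was at 256 and 307 CPM in HT1376 CT number 12, with 162 to 299.8 CPM in number 11 and 13, and at 1442 and 1334 CPM in HT1376 FOXP3 KO number 12, with 234 to 262 CPM in the others. Its difference between the lines was 2.15 ± 0.21 (adjusted p = 3.69e-06, edgeR). ARHGAP45, a GTPase activating protein gene, had 31.5 and 18 CPM in HT1376 CT number 12 and 80.2 and 74.3 CPM in HT1376 FOXP3 KO number 12, against 12.9 to 24.2 CPM (median 15.8) (2.18 ± 0.19, adjusted p = 1.51e-06, edgeR). The desmosome gene DSP and the transcription factor gene RUNX1 had log2 fold changes of 0.07 ± 0.09 and -0.16 ± 0.11 in HT1376 CT and 1.16 ± 0.06 and 1.29 ± 0.10 in HT1376 FOXP3 KO. Their adjusted p were 3.95e-05 and 4.65e-05 (edgeR).

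Genes with a more negative contrast in HT1376 FOXP3 KO included CPT1A, which brings fatty acids into mitochondria. CPT1A was at 191 and 134 CPM in HT1376 CT number 12, with 185 to 253 CPM in number 11 and 13, and at 18.6 and 11.3 CPM in HT1376 FOXP3 KO number 12, with 82.8 to 86.5 CPM. The difference was -2.11 ± 0.20 (adjusted p = 3.69e-06, edgeR). In HT1376 CT number 12 lay below both others only with IFNγ. CGA, the common alpha chain of glycoprotein hormones, was at 499 and 419 CPM in HT1376 CT number 12 and 45.5 and 26.3 CPM in HT1376 FOXP3 KO number 12, with 362 to 524 CPM and 64.3 to 125 CPM in the others (-1.47 ± 0.15, adjusted p = 5.67e-06, edgeR). PLAC4, a placental transcript, went in opposite directions, 1.56 ± 0.13 in HT1376 CT and -1.39 ± 0.10 in HT1376 FOXP3 KO (adjusted p = 7.83e-07, edgeR), although in HT1376 CT its number 11 and 13 libraries also differed between untreated (30 and 29.6 CPM) and IFNγ-treated cells (142 and 94.1 CPM).

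Few genes passed any test of whether IFNγ altered the number 12 difference. By the edgeR interaction test 0 of 27806 genes passed, 896 (3.22%) had an unadjusted p under 0.05, and DESeq2 called 1 gene. With the sample number as a replicate block, which the pairing of the libraries allows, 2 genes passed. They were XAF1, an interferon-induced apoptosis gene, at -1.62 (adjusted p = 0.00164, edgeR) and HCP5, a noncoding transcript of the HLA region, at -1.63 (adjusted p = 0.00162, edgeR), both named after their values were seen. XAF1 was also the DESeq2 gene, at -1.59 (adjusted p = 1.44e-05, DESeq2), and the 1 gene past the test with both interactions in 1 model (adjusted p = 0.0231, edgeR). With no filter on low counts 12 genes passed, both of these among them. The hypoxia target DDIT4 was another, at -0.72 (adjusted p = 0.0230, edgeR), and it passed in no other setting. Its within-group differences without and with IFNγ were 2.18 and 1.63 in HT1376 CT and 2.10 and 1.19 in HT1376 FOXP3 KO. The rest of the 12 were OAS2 (-1.11), NLRC5 (-0.96), IFI27 (-1.34), HLA-B (-0.80), ASPM (-0.69), PRUNE2 (-0.85), PRDX2P3 (-8.15), PRDM1 (1.13) and RGS2 (1.47). They too were named after their values were seen. RGS2 also passed without number 11 of untreated HT1376 FOXP3 KO. For ENO2 the contrast differed by 0.18 ± 0.32 between IFNγ-treated and untreated cells. Each group holds 1 number 12 library.

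Number 11 and number 13 were compared to show how the remaining libraries varied. The fit counts the libraries of a number as separate, so its p-values do not measure the spread between numbers. In this test 261 genes (0.939%) differed, 56 higher (0.201%) and 205 lower (0.737%) in number 11, and 2402 (8.64%) had an unadjusted p under 0.05. The 205 included 4 of 18 heat shock genes, among them HSPA8 (-0.49 ± 0.08, adjusted p = 4.96e-04, edgeR), the constitutive chaperone, which was at 1870.2 and 1905 CPM in HT1376 CT number 11 and 2439 and 2304 CPM in number 13. The chemokine gene CXCL11 (-1.23 ± 0.27, adjusted p = 0.0140, edgeR) was at 9.99 CPM in number 11 and 27.6 CPM in number 13 of IFNγ-treated HT1376 CT, and its number 12 value there was 31.4 CPM. TNFRSF11B, the decoy receptor osteoprotegerin, had -3.00 ± 0.33 (adjusted p = 3.96e-06, edgeR). It was at 1.63 and 2.72 CPM in HT1376 CT number 11, at 22.3 and 23.6 CPM in number 13, and at 10.9 and 22.4 CPM in number 12. TGFBR2 and NRP1, receptors for TGF-β and semaphorins, had -2.66 ± 0.47 and -2.78 ± 0.45 (adjusted p = 0.00168 and 0.00127, edgeR) and were at or below 0.288 CPM in HT1376 FOXP3 KO, so these differences rest on HT1376 CT, and the TGFBR2 call was lost with DESeq2 (adjusted p = 0.720). CSF3R, higher in number 11 (2.07 ± 0.42, adjusted p = 0.0115, edgeR), was the reverse, at 0 in HT1376 CT and at 7.79 and 8.37 CPM in HT1376 FOXP3 KO number 11 against 1.79 and 1.98 CPM in number 13. Without any 1 of those 4 libraries the adjusted p of CSF3R was 0.158 to 0.295, and without number 11 or 13 of untreated HT1376 CT that of TGFBR2 was 0.0989 or 0.0751.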

How the data were processed

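RNA of 12 HT1376 libraries was sequenced as paired 150-base reads after ribosomal depletion. The authors removed Mycoplasma reads with Kraken, aligned to GRCh38 (Ensembl 103) with STAR (2.7.11a in the submitters' processing notes) and counted reads per gene with htseq-count. The deposited values are raw counts for 60666 genes, and the strand setting is not given in the sources used here.

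The 27806 genes that reached 10 counts summed over the 12 libraries were fitted with edgeR 4.0.16 in R 4.3.3 (glmQLFit, TMM factors) with the 4 line-by-treatment groups as covariate. Number 12 against 11 and 13 was given with its SE and no test. Its interaction with line, its interaction with IFNγ, and 11 against 13 were tested by quasi-likelihood with Benjamini-Hochberg adjustment over all genes. Levels are CPM with TMM factors, and log2 CPM used a prior count of 2. The scripts were tested on simulated data.

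The libraries and gene lists were chosen with earlier results of these data known. Named genes were ENO2, ENO1 and ENO3, members of the hypoxia, HIF and glycolysis lists, the 10 at each end of the number 12 contrast, up to 10 per direction of each interaction, 5 at each end of 11 against 13, the 2 to 4 largest members of the other lists, and the 5 most like ENO2. Outside the lists a mean of at least 1 CPM was required. The values of 2 genes under this rule are not reported here, and the counts of genes include them.

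Deviations from group means paired the libraries by number: r was 0.126 to 0.428 between libraries numbered 11, 0.277 to 0.564 for 12 and 0.128 to 0.498 for 13, against -0.440 to 0.161 between different numbers. Alternatives were DESeq2 1.42.0 and its size factors, other filters, the bias-adjusted deviance, a replicate block, each line alone, another fold threshold, each library left out and, chosen after seeing the data, thinning to equal total counts within each group.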

Additional observations from a re-analysis of the deposited data

Results flagged for a closer look

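The number 12 contrast differed between the lines, by edgeR's interaction test with an adjusted p under 0.05, for 34 of the genes reported here under the rule for named genes. In each of them both within-group differences of HT1376 FOXP3 KO lay beyond both of HT1376 CT. Values are the interaction term of the fit of all 12 libraries, positive where the log2 fold change of number 12 against 11 and 13 was higher in HT1376 FOXP3 KO than in HT1376 CT.

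The contrast was more positive in HT1376 FOXP3 KO for RGS4 (2.41), ARHGAP45 (2.18), IGFBP3 (2.15), CDC42EP1 (2.15), HIF1A-AS2 (1.86), IER3 (1.46), RUNX1 (1.41), C1orf116 (1.29), VEGFA (1.29), SFXN3 (1.26), ADM (1.21), TRAM2 (1.21), F3 (1.2), DSP (1.05), STC1 (1.0), INSIG2 (0.91), PFKP (0.89), MSMO1 (0.77), HK2 (0.66) and ENO1 (0.60). RGS4 regulates G protein signalling, CDC42EP1 is a CDC42 effector gene, TRAM2 acts in collagen secretion and MSMO1 in cholesterol synthesis. HIF1A-AS2 is antisense to HIF1A and may share reads with it.

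It was more negative in HT1376 FOXP3 KO for KRT18 (-0.47), SLC7A11 (-0.77), SLC2A3 (-0.79), NECTIN1 (-1.10), AQP3 (-1.14), DNAJB4 (-1.20), SESTD1 (-1.26), OSBP2 (-1.33), MAPK4 (-1.36), CGA (-1.47), PURPL (-1.60), PDK4 (-1.91), CPT1A (-2.11) and PLAC4 (-2.99). SLC7A11 imports cystine, AQP3 is a channel for water and glycerol, NECTIN1 an adhesion molecule and KRT18 an epithelial keratin.

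Some of these calls were lost when 1 library was left out. KRT18 lost its call whichever of the 12 libraries was left out (adjusted p 0.0644 to 0.521, edgeR) and with both interactions in 1 model (0.0769). Its value was -0.47 in the full fit and -0.42 to -0.36 with 1 library left out, so its call did not rest on 1 particular library. The cause of that shift was not tested. SLC7A11 lost it without 7 of them (0.0509 to 0.687), with filterByExpr (0.0594) and with the bias-adjusted deviance (0.0674), and MSMO1 without 4 (0.0605 to 0.276) and with that deviance (0.0828). HIF1A-AS2 and DNAJB4 lost it without 3 libraries each (up to 0.0889 and 0.107), NECTIN1 and MAPK4 without 2 each (up to 0.0850 and 0.0713), and AQP3 (0.121), F3 (0.0608), IER3 (0.0551) and PURPL (0.146) without 1 each.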

How the results depend on the processing

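The hypoxia and glycolysis counts by the fold rule were 30 to 34 and 11 to 13 with each library left out, and at a log2 threshold of 0.5 the glycolysis count was 19. Over all genes the rule gave 611 genes, 609 with the replicate block, 1565 at the threshold of 0.5, 2431 in HT1376 CT alone and 2791 in HT1376 FOXP3 KO alone, where only 2 groups must share the order, and 664 to 1233 with 1 library left out. The line difference gave 228 genes, 550 with no filter, 425 with DESeq2, 126 with the bias-adjusted deviance and 75 to 372 with 1 library left out. With the numbers as a replicate block, which the pairing of the libraries allows, 1019 genes passed, and no named gene with a line call lost it. Genes without a line call, such as ENO2, were not followed in that setting. The IFNγ difference gave 0 genes, 12 with no filter, 1 with DESeq2, 2 with the replicate block, 1 with both interactions in 1 model and 0 to 2 with 1 library left out. Number 11 against 13 gave 261 genes, 587 with no filter, 152 with filterByExpr, 543 with libraries 11 and 13 alone and 195 to 342 with 1 library left out. The cause of these shifts was not tested. The number 12 share of the within-group spread was 32.2% in genes of at least 10 CPM and 24.8% with a prior count of 0.5. More genes were higher than lower by the fold rule (380 and 231) in every setting except HT1376 CT alone, with 1142 higher and 1289 lower. At the threshold of 0.5 the counts were 807 and 758. By order alone, with no fold threshold, 1286 genes lay above both others in all 4 groups and 2348 below. The number 12 value of 27 named genes, none past the fold rule, changed sign in some setting, such as PLAC4 (0.28, and -1.38 in HT1376 FOXP3 KO alone), RGS4 (0.40, and -0.69 in HT1376 CT alone) and IRF8 (-1.12, and 0.27 in HT1376 CT alone). Of 34 named genes with a line difference 17 lost the call in at least 1 setting (65 of 646 pairs of gene and setting), and of 10 named for 11 against 13, 8 did (27 of 180). Leaving out number 12 of IFNγ-treated HT1376 FOXP3 KO lost 13 named calls, the most of any library. In the number 12 libraries 3 counts correspond to 0.236 to 0.668 CPM, so genes at low levels, such as CA9 (4 to 21 counts there), rest on few counts. How the effect of depth varied with expression level was not tested.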
